A study of Mus musculus with 2 samples.

Results

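The genes described here are 9 markers of intestinal tuft cells, Dclk1, Trpm5, Avil, Ptgs1, Alox5ap, Gfi1b, Pou2f3, Rgs13 and Cd24a. They were found by gene symbol in the platform's probe annotation, where each had 1 probe, and they are 9 of the 16390 genes named on the array. Dclk1 was listed there under its older symbol, Dcamkl1. Their RNA was measured in sorted cells of the mouse small intestinal epithelium, 3 populations on 2 two-colour arrays. All mice carried Atoh1-crePGR, Lgr5-EGFP-IRES-creERT2 and Rosa26-tdTomato, and all received RU486 on 5 consecutive days, which switches on the Cre recombinase that Atoh1 drives and so marks Atoh1-expressing cells and their progeny with tdTomato for good. The label was given 20 days to be passed on, and epithelial cells of 4 mice were then pooled and sorted into EGFP+ve/tdTomato-ve cells (EGFP only, Lgr5 cells with no recorded Atoh1 history), EGFP+ve/tdTomato+ve cells (double positive, Lgr5 cells of Atoh1 descent) and EGFP-ve/tdTomato+ve cells (tdTomato only, the other Atoh1 descendants). On each array EGFP-only RNA was the Cy5 channel. The Cy3 channel held double-positive RNA on array 1 and tdTomato-only RNA on array 2, and the dyes were not swapped. The EGFP allele reports Lgr5 and is known to be silent in part of the crypts, so a cell without EGFP need not lack Lgr5.

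Tuft cells are rare chemosensory cells of the epithelium with a brush of long microvilli. They sense the gut content through a taste-like cascade that ends in the cation channel Trpm5, depend on the transcription factor Pou2f3, and release eicosanoids and the cytokine interleukin-25, which starts type 2 immune responses to parasites. Their markers therefore fall into transcription factors, sensory signalling, eicosanoid synthesis, the actin core of the microvilli, and proteins of the membrane and of G-protein or kinase signalling.

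Each population was 1 pooled sort and each comparison 1 array, so the ratios carry no error from replicates and could not be tested. A spot's value is the median intensity that the scanner gave, with no background removed. Blank spots, which carry no probe, averaged 68.5 and 68.7 in Cy5 and 77.9 and 78.6 in Cy3 on arrays 1 and 2. A spot counted as above background when it exceeded the blank mean by 2 SD, that is 74.1 and 75.7 in Cy5 and 82.2 and 85.4 in Cy3. Raw Cy5 and Cy3 values are on different scales, and only the normalized log2 ratios compare them. The same limit holds for the summed spot intensities given below, from which no background was removed. The EGFP-only channel was read on both arrays. Over 15639 probes above background its repeat readings differed with an SD of 0.083 on the normalized log2 scale. This is a technical spread only, of the repeated channel, and is not the full error of a ratio between dyes. Vil1, the villin of epithelial microvilli, read between 2779 and 3617 in the 4 channels. Lgr5 read 699 and 666 in EGFP only, 572 in double positive and 282 in tdTomato only. These raw readings do not rank EGFP only against the other populations. The normalized log2 ratio of Lgr5 over EGFP only was 0.26 in double positive and −0.89 in tdTomato only. The authors' deposited table gives 0.13 and −1.25, and median centring gives −0.26 and −1.33. The sign in double positive thus depended on the normalization. Probes for Atoh1 were not analysed here.

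Of the 9 markers, 8 gave weak signals and Cd24a a strong one. In the double-positive population the microvillus gene Avil, the signalling genes Rgs13 and Trpm5 and the leukotriene gene Alox5ap read lower than in EGFP only, Dclk1 and Ptgs1 read near the EGFP-only level, and Cd24a was 3.19-fold higher. In the tdTomato-only population Avil, Rgs13 and Trpm5 were nearer to the EGFP-only level, while Alox5ap stayed below it and Cd24a was 3.07-fold higher. The transcription factor genes Gfi1b and Pou2f3 lay at the background limit.

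**Figure D1:**
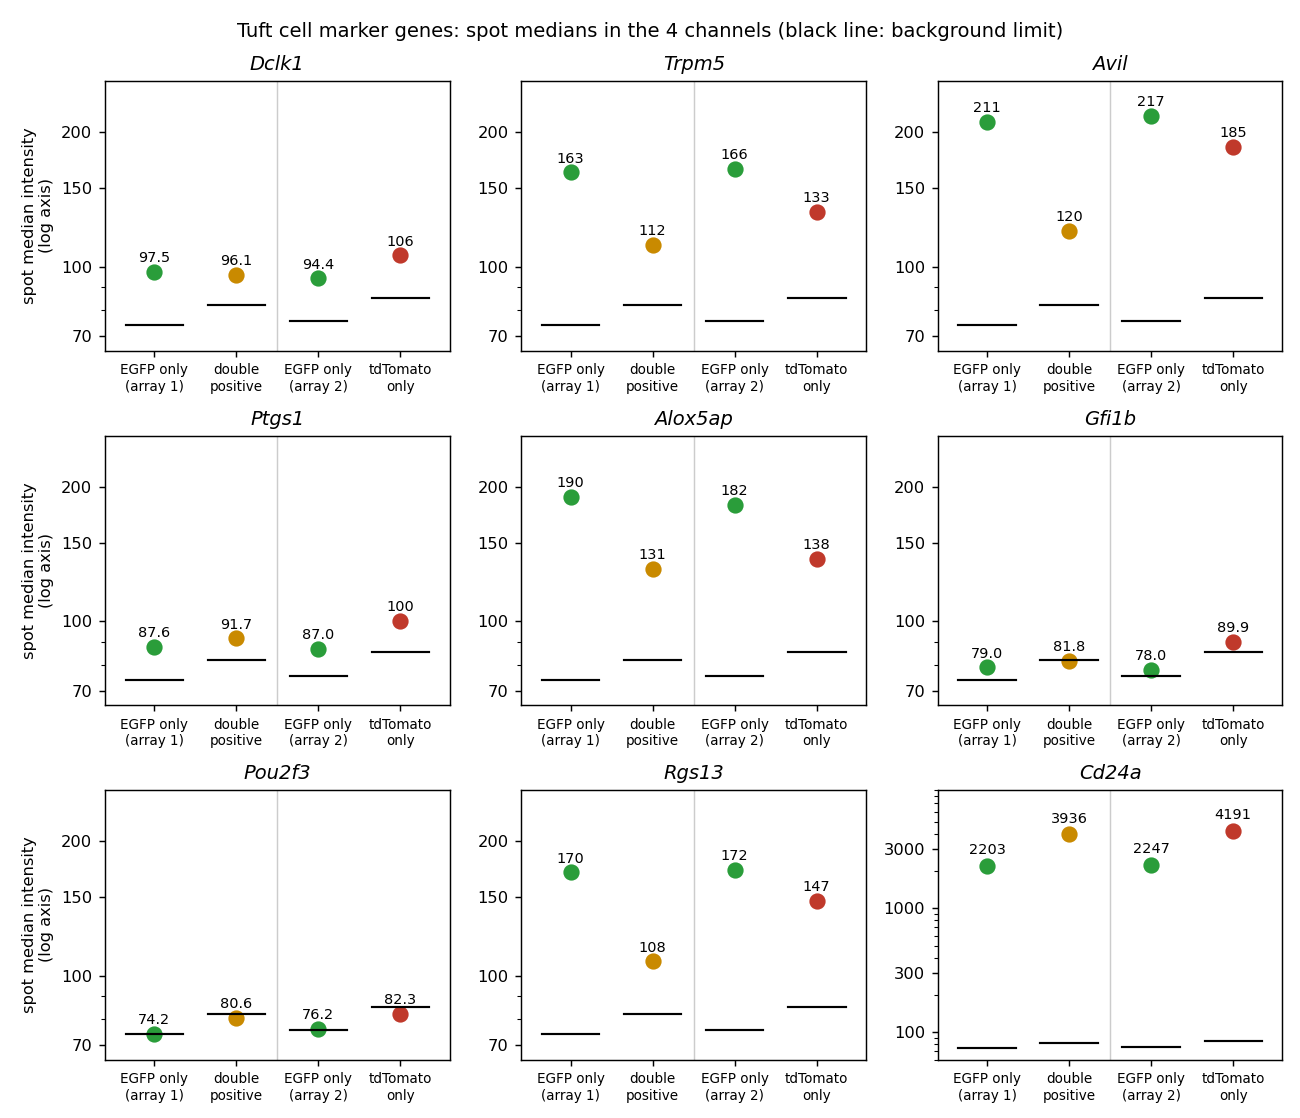
Spot median intensity (vertical log axis, arbitrary units) of each tuft cell marker gene in EGFP only on array 1, double positive, EGFP only on array 2 and tdTomato only; each point is 1 channel of 1 array and each black line that channel's background limit. Avil, Rgs13, Trpm5 and Alox5ap lie above the limit in all 4 channels, Pou2f3 lies at the limit, and Cd24a is drawn on a wider axis because it reads between 2203 and 4191. Cy5 (EGFP only) and Cy3 readings are on different scales.

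The transcription factors were the dimmest members. Pou2f3, which tuft cells need in order to form, read 74.2 and 76.2 in EGFP only, 80.6 in double positive and 82.3 in tdTomato only. It passed the limit in EGFP only, narrowly, and in neither of the other populations. The bound computed from this was 1.07-fold lower in double positive and 1.06-fold lower in tdTomato only. These bounds rest on the main normalization and are no firm minimum. No gap between neighbouring populations (0.04 and 0.12) was beyond 2 times the technical SD, and with median centring the log2 ratio in double positive was −0.04, nearer to 0 than the bound. Gfi1b, a transcriptional repressor of tuft cells and also of red cell and platelet precursors, read 79.0 and 78.0 in EGFP only, 81.8 in double positive and 89.9 in tdTomato only. It was not above background in double positive. There the spot below the limit gave a log2 ratio over EGFP only of −0.18 (1.13-fold lower), or −0.12 with median centring. Its log2 ratio in tdTomato only over EGFP only was −0.0025. The authors' deposited table, which uses a lower background limit, gives Gfi1b a log2 ratio of −0.94 in double positive and 0.56 in tdTomato only. Both channels lie so near the blanks that these values rest on a few units of intensity.

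Trpm5 encodes the calcium-activated cation channel that depolarises tuft cells after a taste-like signal. It read 163 and 166 in EGFP only, 112 in double positive and 133 in tdTomato only, above background in all 4 channels. EGFP only was highest, double positive lowest and tdTomato only between them, with a log2 ratio over EGFP only of −0.47 (1.38-fold lower) in double positive and −0.25 (1.19-fold lower) in tdTomato only. Only 7.29% of the measured genes had a lower ratio in double positive. In the authors' deposited table the corresponding values are −0.97 (1.96-fold) and −0.53 (1.44-fold).

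Avil encodes advillin, an actin-bundling protein of the villin family found in tuft cell microvilli. Its spot read 211 and 217 in EGFP only, 120 in double positive and 185 in tdTomato only. The double-positive reading stands apart, and the tdTomato-only one sits next to EGFP only in the main values. The log2 ratio in double positive was −0.69 (1.61-fold lower), and 2.23% of the 11774 measured genes lay further down. In tdTomato only it was −0.01, within the technical spread. The authors' deposited table gives −1.26 (2.39-fold lower) and −0.18, and median centring gives −0.97 and −0.33. The closeness of tdTomato only to EGFP only thus depended on the normalization.

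Rgs13 encodes a regulator that switches off G-protein signals, expressed in tuft cells and also in germinal centre B cells and mast cells. It showed the same order as Avil. It read 170 and 172 in EGFP only, 108 in double positive and 147 in tdTomato only. The log2 ratio was −0.61 (1.53-fold lower) in double positive, with 3.59% of genes below it, and −0.11 (1.08-fold lower) in tdTomato only. The authors' deposited table gives −1.28 (2.43-fold lower) and −0.30 (1.23-fold lower), and median centring gives −0.84 and −0.36.

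The repeat EGFP-only readings of these genes give the technical error of the channel that the populations share. After subtraction of the blank mean, the array 2 reading exceeded the array 1 reading by 0.06 (Avil), 0.03 (Rgs13) and 0.05 (Trpm5) on the log2 scale. Probes of like brightness in EGFP only had a repeat SD of 0.124, 0.129 and 0.129 in the same order. The blank-subtracted log2 ratios in double positive, −1.21, −1.26 and −0.95, are several times that spread. That spread comes from the repeated Cy5 channel alone. Error of the Cy3 channel, any difference between the dyes, and spread between animals or sorts were not measured.

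Of the eicosanoid genes, Alox5ap encodes the protein that hands arachidonic acid to 5-lipoxygenase for leukotriene synthesis, and Ptgs1 encodes cyclooxygenase 1 of prostaglandin synthesis. Alox5ap read 190 and 182 in EGFP only, 131 in double positive and 138 in tdTomato only. Both tdTomato-positive populations were lower than EGFP only and lay close to each other, at log2 ratios of −0.38 (1.30-fold lower) and −0.31 (1.24-fold lower), or −0.70 and −0.63 in the authors' deposited table. Ptgs1 read 87.6 and 87.0 in EGFP only, 91.7 in double positive and 100.2 in tdTomato only. Its log2 ratios of −0.06 and 0.08 were within the technical spread, and the authors' deposited table has 0.00 and 0.53.

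Dclk1, the microtubule-associated kinase most used to stain tuft cells, was dim and, in the main values, near the EGFP-only level in both other populations. It read 97.5 and 94.4 in EGFP only, 96.1 in double positive and 106 in tdTomato only. Its log2 ratios were −0.09 and 0.08, near the technical spread, and −0.19 and 0.40 in the authors' deposited table.

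Cd24a encodes a small glycosylated surface protein that is abundant on tuft and Paneth cells. It was the only member with a bright spot, at 2203 and 2247 in EGFP only, 3936 in double positive and 4191 in tdTomato only. Both tdTomato-positive populations were above EGFP only and did not differ from each other beyond the technical spread. The log2 ratios were 1.68 in double positive, higher than 97.9% of the measured genes, and 1.62 in tdTomato only. The authors' deposited table gives 1.34 (2.53-fold) and 1.22 (2.33-fold), and median centring without loess gives 0.90 and 0.91, under 2-fold.

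**Figure D2:**
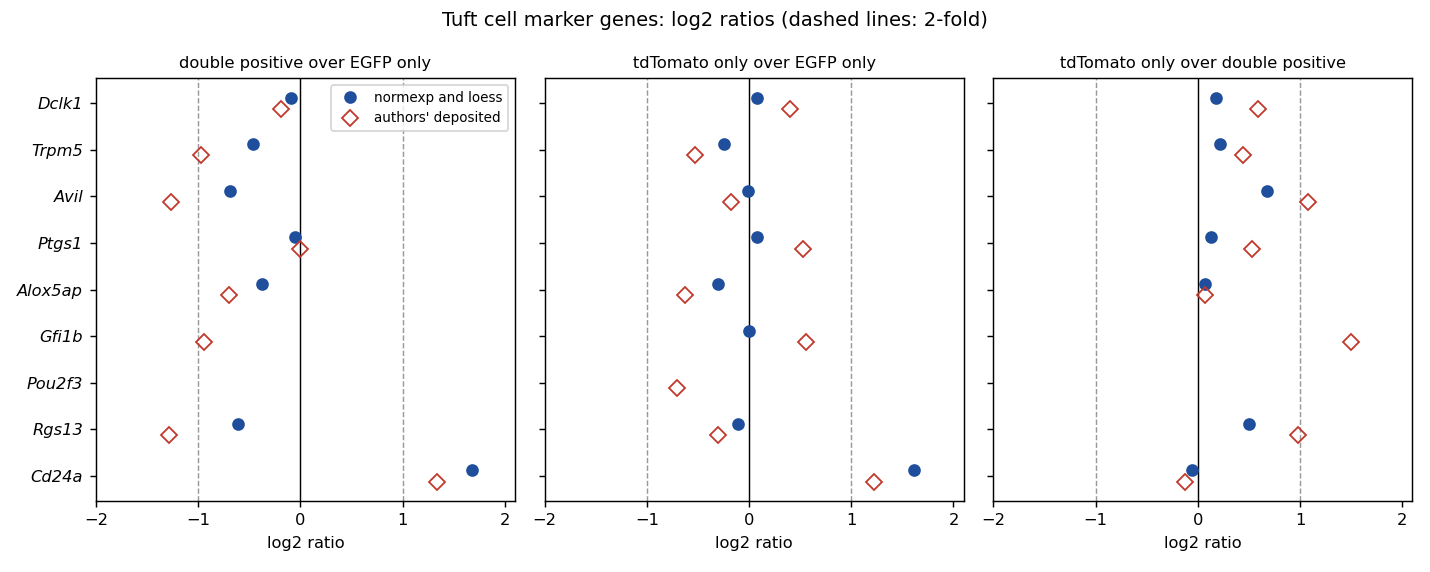
Log2 ratio (horizontal axis) of each tuft cell marker gene in the 3 comparisons, from normexp and loess (filled circles) and from the authors' deposited table (open diamonds); a missing point had no value, and dashed lines mark 2-fold. Avil and Rgs13 pass 2-fold below EGFP only in double positive in the deposited values alone, and Cd24a is past 2-fold above in both populations over EGFP only.

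Double positive over EGFP only, the first comparison, sets Lgr5-EGFP cells that descend from Atoh1-expressing cells against those with no recorded Atoh1 history. Of the 9 members, 7 were above background in both channels. Among these 7, Cd24a was at least 2-fold higher, against 5.1% of all measured genes, and 0 were at least 2-fold lower, against 0.34%. The other 6 lay below 0, as did 51.1% of all genes, and the member median was −0.38 beside −0.0072 over all genes. The authors' deposited table had values for 8 members, of which Avil and Rgs13 were at least 2-fold lower, against 3.5% of its genes, and Cd24a at least 2-fold higher, against 12.2%. There 6 of 8 lay below 0, beside 49.8% of genes. The offset of 50 in the main background correction pulls dim spots towards a ratio of 0, and all members but Cd24a are dim. In bulk RNA, fewer tuft cells in a population and less of these RNAs per tuft cell cannot be told apart.

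The second comparison, tdTomato only over EGFP only, set the Atoh1 descendants without Lgr5-EGFP against the same reference. Gfi1b joined the other 7 measured members here. Cd24a was again at least 2-fold higher, against 6.15% of genes, and 0 of the 8 were at least 2-fold lower, against 1.19%. Of the 8, 5 lay below 0 beside 51.8% of all genes, and the median was −0.0072 beside −0.012 over all genes. Trpm5 and Alox5ap lay below EGFP only by more than 2 times the technical SD of 0.083, while Avil, Rgs13, Dclk1, Ptgs1 and Gfi1b did not. With median centring Avil lay at −0.33 and Rgs13 at −0.36. In the authors' deposited table all 9 had a value, with Cd24a alone at least 2-fold higher (12.8% of its genes), 0 at least 2-fold lower (6.92%) and 5 below 0 (51.2%).

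The third comparison, tdTomato only over double positive, is the log2 ratio of array 2 minus that of array 1, so that EGFP only and any dye effect the arrays share drop out. Avil was 1.60-fold higher in tdTomato only (log2 0.68) and Rgs13 1.42-fold higher (0.50), and 96.5% of the 11311 genes lay below Rgs13. Trpm5 (0.22), Dclk1 (0.17), Ptgs1 (0.13) and Alox5ap (0.07) were also above 0, and Cd24a was at −0.06. So 6 of 7 lay above 0, while 54.3% of all genes lay below it. None of the 7 was 2-fold apart, beside 0.813% of genes past 2-fold upwards and 0.274% downwards. In the authors' deposited table Avil (2.11-fold) and Gfi1b (2.83-fold) were at least 2-fold higher and 0 members at least 2-fold lower, against 1.76% of its genes in either direction. Rgs13 stood at 0.98, and 7 of 8 members lay above 0 where 58.7% of all genes lay below it. Gfi1b was not above background in double positive in the main values. Subtracting the blank mean in place of normexp avoids that offset. It made Avil and Rgs13 at least 2-fold lower in double positive over EGFP only (3.41% of genes) and Cd24a higher (9.96%), with 6 of 7 below 0 (50.7%). For tdTomato only over EGFP only it left Cd24a higher (10.8%), 0 members at least 2-fold lower (5.21%) and 4 of 8 below 0 (51.6%). Between the tdTomato-positive populations Avil and Rgs13 were at least 2-fold higher (1.82%), 0 at least 2-fold lower (1.44%) and 1 of 7 below 0 (54.1%). The third comparison shares its arrays with the first 2 and is no separate evidence.

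**Figure D3:**
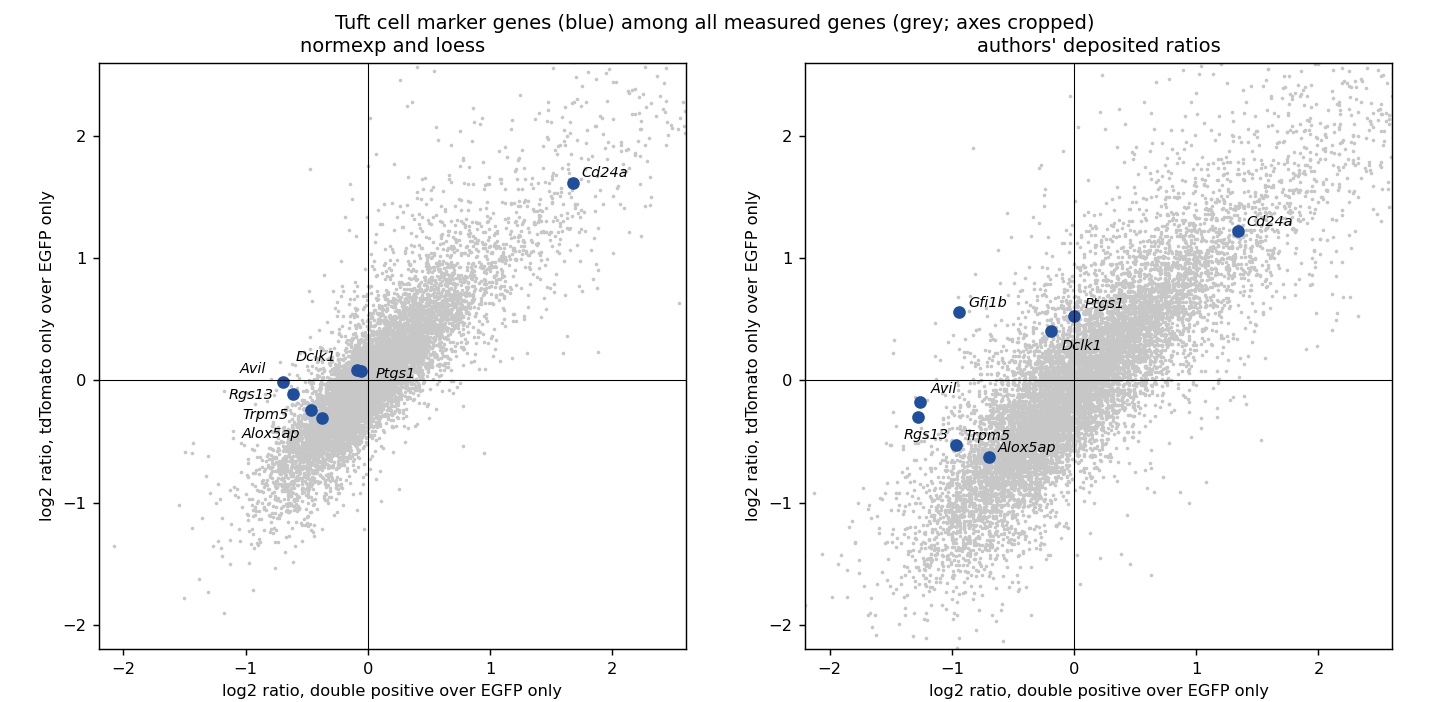
Log2 ratio of double positive (horizontal axis) and of tdTomato only (vertical axis) over EGFP only, from normexp and loess (left) and from the authors' deposited table (right); grey points are all measured genes, blue points the tuft cell marker genes with both values, and the axes are cropped. In the left panel Cd24a lies at 1.68 and 1.62. Avil and Rgs13 lie there towards the left of the gene cloud, low in double positive and near 0 in tdTomato only. Both axes share the EGFP-only population, so the slope of the cloud is no result.

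The order of the 3 populations on the normalized scale was the same for Trpm5, Avil, Alox5ap, Gfi1b and Rgs13, with double positive lowest, tdTomato only in the middle and EGFP only highest. For Avil and Rgs13 in the main values, the gap between double positive and tdTomato only (0.68 and 0.50) was beyond 2 times the technical SD. The gap from tdTomato only to EGFP only (0.01 and 0.11) was not. For Alox5ap it was the reverse, with gaps of 0.07 and 0.31. For Trpm5 both gaps, 0.22 and 0.25, were beyond it. For Gfi1b the double-positive value was below the limit and the order is not secure. Dclk1 and Ptgs1 had double positive lowest and tdTomato only highest, with no gap between neighbouring populations beyond it. From double positive to tdTomato only, Dclk1 rose by 0.17, slightly beyond it, and Ptgs1 by 0.13. These became 0.55 and 0.50 with the blank mean subtracted, and 0.59 and 0.53 in the authors' deposited table. Cd24a had EGFP only lowest.

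Enteroendocrine genes, markers of hormone cells that are as rare as tuft cells, mostly moved with Avil, Rgs13 and Trpm5. Of 14 such genes, 13 lay below 0 in double positive over EGFP only, with a median log2 ratio of −0.73 and 6 at least 2-fold lower, beside 51.1% and 0.34% of all genes. Sct, at 0.66, was the exception. In tdTomato only over EGFP only 11 lay below 0 (51.8% of all genes), with a median of −0.22. There 1 was at least 2-fold lower (1.19%), and Sct, at 1.65, was 3.14-fold higher (6.15%). Of the same 14, all lay above 0 in tdTomato only over double positive, with a median of 0.61, where 54.3% of all genes lay below 0. Their summed spot intensity was 10156 and 10141 in EGFP only, 3793 in double positive and 6270 in tdTomato only, and all 14 probes were above background in every channel. Their part in the tuft gene values was not tested.

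Paneth cell genes moved with Cd24a, and goblet cell genes were also higher in both tdTomato-positive populations. All 9 measured Paneth genes other than Cd24a were at least 2-fold higher in double positive, with a median of 21.1-fold, and 8 of 9 in tdTomato only, with a median log2 ratio of 4.33, beside 5.1% and 6.15% of all genes, though several spots were at the scanner's ceiling. Clps, which encodes colipase, had 5.55 and 5.22, and the phospholipid lipase gene Pnliprp2 5.45 and 4.93. The summed intensity of the 9 probes was 45593 and 47745 in EGFP only, 362848 in double positive and 346882 in tdTomato only. Of 13 measured goblet genes, 11 were at least 2-fold higher in double positive, with a median log2 ratio of 2.52 and 1 gene below 0. In tdTomato only it was 11 of 12, with a median of 3.66, beside the same shares of all genes. In tdTomato only over double positive the goblet median was 1.05 and the Paneth median −0.32. The part of Paneth or goblet cells in the Cd24a value was not tested.

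Blood cells share some of these markers as well. Alox5ap and Ptgs1 are active in myeloid and mast cells, Rgs13 in B and mast cells, and Gfi1b in red cell and platelet precursors. Genes of T cells and intraepithelial lymphocytes were higher in double positive (8 of 8 measured at least 2-fold, median log2 ratio 2.76) and in tdTomato only (6 of 8, median 1.54), again beside 5.1% and 6.15% of all genes, with the summed intensity of 10 probes at 2267 and 2201 in EGFP only, 13392 in double positive and 6266 in tdTomato only. The T cell receptor genes Cd3g (6.51-fold) and Cd3d (3.65-fold) were among them, while the probe for Cd3e was not above background in any channel. Of 12 measured myeloid or mast cell genes, 4 were at least 2-fold higher in double positive, including C1qb (3.62) and Kit (2.08), against 5.1% of all genes. Below 0 lay 3, Csf1r (−0.18), Cd68 (−0.16) and Itgam (−0.11). The mast cell genes Mcpt1 (0.21), Mcpt2 (0.08) and Cpa3 (0.07) were near 0 in double positive in the main values. Mcpt1 had 1.24 there with the blank mean subtracted. The authors' deposited table gives 1.61, 0.51 and 0.89 in the same order. In tdTomato only 2 of 8 measured myeloid or mast cell genes were at least 2-fold higher, against 6.15%. This became 6 of 8 with the blank mean subtracted (10.8% of all genes) and 9 of 12 in the authors' deposited table (12.8%). Mcpt2 had 0.39 there, while Mcpt1 and Cpa3 had no main value because EGFP only was below the limit. The authors' deposited table gives Mcpt1 2.33, Mcpt2 1.46 and Cpa3 1.29 in tdTomato only. The count past 2-fold in double positive was 7 of 12 with the blank mean subtracted (9.96% of all genes) and 8 of 13 in the authors' deposited table (12.2%). The 15 probes summed to 1554 and 1536 in EGFP only, 3077 in double positive and 2721 in tdTomato only. Of 4 measured B or plasma cell genes (median 0.19) none was 2-fold apart in double positive, but Ms4a1, which encodes the B cell protein CD20, moved from 1.27-fold higher to 3.28-fold with the blank mean subtracted and to 4.03-fold in the authors' deposited table. The probe for Pax5 was not above background in any channel. Of 4 measured red cell or platelet genes (median −0.02) none was 2-fold apart under any of these treatments. Summed intensities in EGFP only, double positive and tdTomato only were 448 and 446, 508 and 512 for the 5 B or plasma cell probes, and 585 and 580, 594 and 652 for the 6 red cell or platelet probes. Much of these last sums is blank signal, which was higher in Cy3 (77.9 and 78.6 per spot) than in Cy5 (68.5 and 68.7). They do not rank EGFP only against the other populations. The part of blood cells in the values of Alox5ap, Ptgs1, Rgs13 and Gfi1b was not tested.

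A further 57 genes reported in tuft cells were listed by role, 51 of them with a probe. In double positive over EGFP only 38 were measured, of which 22 lay above 0 and 16 below. Of these 38, Ptprc alone passed 2-fold upwards and 0 passed it downwards, against the 5.1% and 0.34% given above, and the median was 0.01. In tdTomato only over EGFP only 32 were measured, with 2 past 2-fold upwards (Il13ra1 and Vil1), 1 downwards (Pla2g4a) and a median of −0.03, beside 6.15% and 1.19% of all genes, so the upward count was near the background share. In tdTomato only over double positive none of 32 was 2-fold apart. Many of these genes also serve other cells, and the list was made with earlier results of these data known.

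Of 9 listed genes of the taste-like cascade, 4 were measured in double positive and 3 in tdTomato only. Gng13, the G-protein gamma subunit of taste cells, had −0.18 and −0.14. With the blank mean subtracted it had −1.28 (2.43-fold lower) and −0.81, and the authors' deposited table gives −0.77 and −0.29. Plcb2, the phospholipase that acts after it, had 0.04 and 0.12, and the calcium release channel gene Itpr3 0.03 and −0.05. Ffar3, a receptor for short-chain fatty acids, had −0.07 in double positive. The taste receptor genes Tas1r1 and Tas1r3 and the succinate receptor gene Sucnr1 were not above background in any channel.

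In the main values an eicosanoid enzyme gene had the lowest ratio of these further genes in both populations. Pla2g4a encodes the phospholipase that frees arachidonic acid from membranes. It read 492 and 461 in EGFP only, 207 in double positive and 161 in tdTomato only, so both tdTomato-positive populations were lower, 1.88-fold (log2 −0.91) and 2.51-fold (−1.33). Ltc4s, the leukotriene C4 synthase gene that acts after Alox5ap, read 143 and 148 in EGFP only, 106 in double positive and 137 in tdTomato only. Its log2 ratios of −0.39 and −0.03 follow the order seen for Avil and Rgs13. The prostaglandin D synthase gene Hpgds had −0.20 in both. With the blank mean subtracted it had −1.15 and −1.18, past 2-fold lower, and the authors' deposited table gives −0.79 and −0.65. Ptgs2, the inducible cyclooxygenase gene, had 0.07 in both, 0.64 and 0.50 with the blank mean subtracted, and 1.17 and 1.05 in the authors' deposited table. Both genes read near the blanks.

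Of the further transcription factor genes none was 2-fold apart. Spib, an ETS factor, had −0.20 and −0.18, but −0.87 (1.83-fold lower) and −0.70 with the blank mean subtracted, and −0.65 and −0.41 in the authors' deposited table. Sox9, also a factor of stem and Paneth cells, had 0.13 and −0.16. Hmx3 had −0.09 in double positive and −0.84 with the blank mean subtracted, and Runx1 −0.06 in tdTomato only.

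Of the genes of type 2 immunity, Il13ra1, a receptor chain for interleukin-13, was the only one 2-fold apart in the main values. It read 186 and 180 in EGFP only, 233 in double positive and 302 in tdTomato only, 1.60-fold (log2 0.68) and 2.14-fold (1.10) higher, the latter under 2-fold with median centring or quantile normalization. Il4ra, its partner chain, had 0.19 and 0.08, and Il17rb, a receptor chain for interleukin-25, −0.08 in double positive. Chat, the acetylcholine-synthesizing enzyme, had 0.01 in tdTomato only. Il25 itself read 74.1 and 74.2 in EGFP only, 84.7 in double positive and 87.9 in tdTomato only and passed the limit in the last 2 of these alone. Il25 and the cytokine gene Tslp had no main value in tdTomato only. The authors' deposited table gives 1.01 (2.01-fold higher) for Il25 and −1.45 (2.73-fold lower) for Tslp there, and both genes read near the blanks.

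Among cytoskeletal genes Vil1, shared with all brush border cells, was 1.82-fold higher in double positive (0.86) and 2.14-fold in tdTomato only (1.10), and Espn, an actin bundler, had 0.01 in double positive. The call for Vil1 in tdTomato only ended under other treatments, with 0.86 after quantile normalization, 0.39 with median centring and 0.69 (1.61-fold) in the authors' deposited table. Vil1 had 0.24 in tdTomato only over double positive.

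Of 26 other signalling genes 18 were measured. Ptprc, which encodes the leukocyte surface protein CD45 and has been reported in some tuft cells, was 2.74-fold higher in double positive (1.46) and higher by a log2 ratio of 0.59 in tdTomato only, in the same order as the lymphocyte genes above. The membrane protein gene Tmem176a had 0.90 and 0.40, and Fam221a 0.69 in tdTomato only. Ptpn18, a tyrosine phosphatase gene, had −0.44 in double positive. It read 323 and 314 in EGFP only, 193 in double positive and 255 in tdTomato only.

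**Figure D4:**
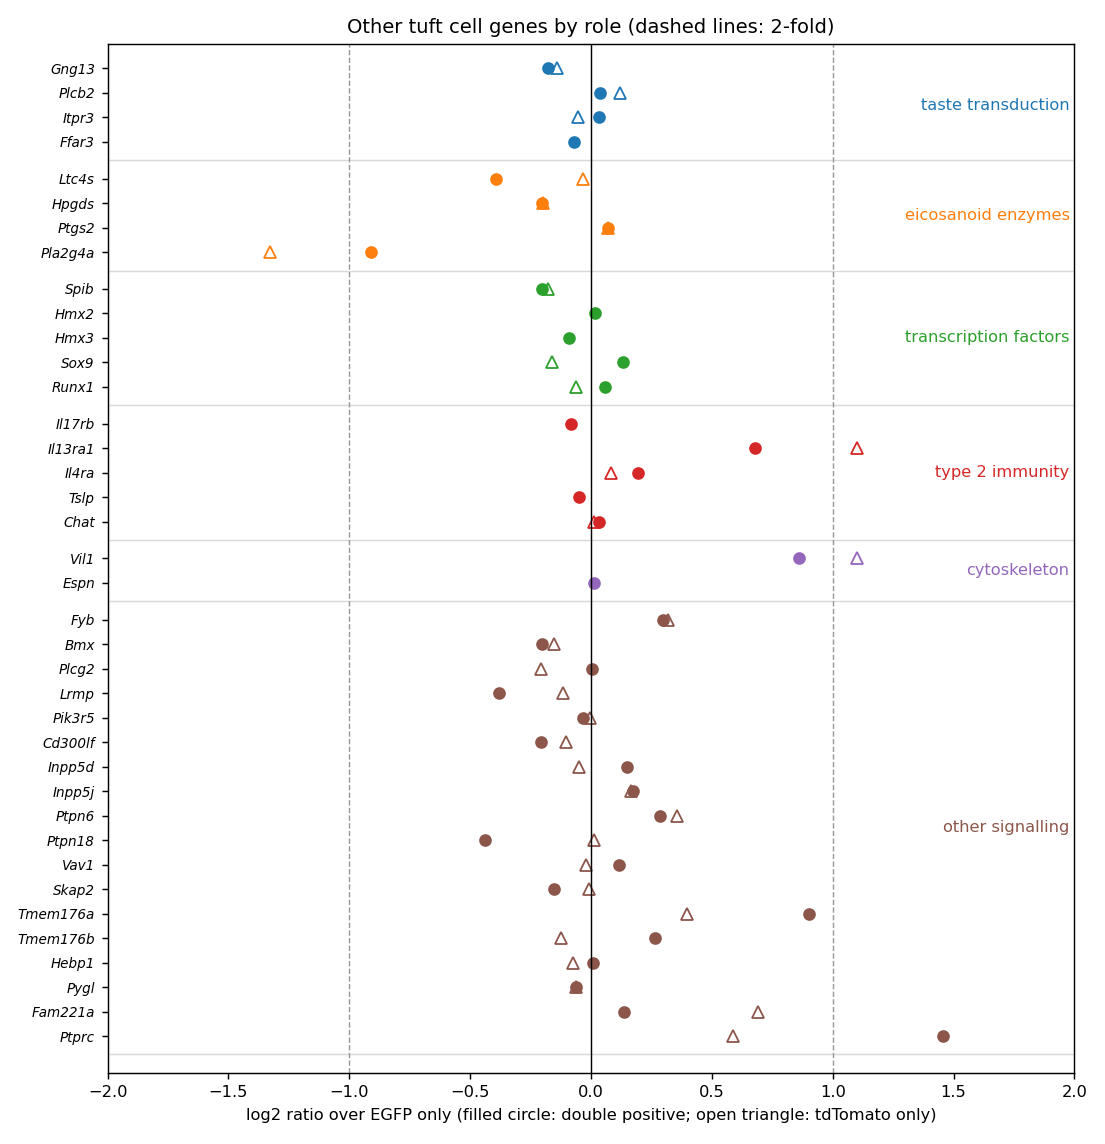
Log2 ratio over EGFP only (horizontal axis) of each further tuft cell gene above background, for double positive (filled circles) and tdTomato only (open triangles), grouped by role; dashed lines mark 2-fold. Ptprc in double positive, and Il13ra1, Vil1 and Pla2g4a in tdTomato only, pass 2-fold.

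The genes whose pattern was nearest to that of Cd24a, by Euclidean distance over both log2 ratios among 11318 genes measured on both arrays, were Edem3 (distance 0.01), which encodes an enzyme that sends misfolded glycoproteins to degradation, Thbs1 (0.03), Spsb2 (0.04), Prdm14 (0.06) and Herpud1 (0.07), a gene of the same degradation route. Their log2 ratios lay between 1.64 and 1.74 in double positive and between 1.56 and 1.65 in tdTomato only. In the authors' deposited table Thbs1 and Prdm14, with 3.54 and 2.51 in tdTomato only, lie well above Cd24a. The distance rests on 2 values per gene that share the EGFP-only population and the dye order.

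Since Pou2f3 belongs to the POU family, whose members bind the octamer ATGCAAAT, the 250 bases before the start sites of the members were searched for it on both strands, in RefSeq promoters of build GRCm38.p6. Of the 9 members 6 matched by symbol (Dclk1, Trpm5, Avil, Ptgs1, Gfi1b and Rgs13), with 7 promoters, and Alox5ap, Pou2f3 and Cd24a did not. The octamer was in 0 of these 7 and in 1.6% of 32851 promoters. Its first 7 letters, ATGCAAA, which every full octamer also holds, were in 1 of the 7, that of Avil, and in 4.12% of all. That promoter is shown because Avil had the lowest member ratio in double positive, and capitals mark the 7 letters or, for the other strand, their reverse complement.
Avil, chr10:127000584-127000610, + strand: ttttcgctgtTTTGCATaggagcagat
Avil, chr10:127000684-127000708, + strand: tgtggttatgATGCAAAcacaagca
The former match begins 115 bases before the start site and reads on the other strand, and the latter begins 15 bases before it. A match of letters does not show that Pou2f3 binds there.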

How the data were processed

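Total RNA was amplified, coupled to Cy dyes and hybridised to Toray arrays, per the labels' protocols. The authors deposited the median intensity of each spot in Cy5 and Cy3, read at 3 scanner gains per the file headers. They also deposited a normalized log2 ratio per probe, whose direction the labels give as tdTomato-positive over EGFP-only cells. The labels do not detail how it was made. Subtracting the blank mean (without the highest and lowest 5%) and centring gave the deposited value within 0.02 for all but 1 of 17118 probes on array 2 and for all 16986 on array 1. Each column had a median of 0, so its scale, centring and direction are known.

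Intensities of 27456 spots per array, 3982 of them controls, were corrected with normexp (offset 50, without a local background estimate) and then loess-normalized array by array, giving controls weight 0 (limma 3.58.1, R 4.3.3). Quality-marked probes, 2 and 3, were left out. Of 23473 probes, 68.9% (Cy5) and 77.1% (Cy3) passed the background limit on array 1, and 67.0% and 72.8% on array 2. The number of arrays limits the precision. A bound divides the bright channel by the dim one, raised where needed to the lowest signal that passed the limit (per channel, after loess and Aquantile). Without a dye swap it can hold dye bias.

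Symbols came from the platform's annotation, updated through RefSeq synonyms (GRCm38.p6): 12622 probe symbols were current, 3947 updated, 59 ambiguous and 3 unmatched. No test was made. Genes were counted at 2-fold and set beside all measured genes. All 9 members are named, and of each further list up to 3 genes with the largest ratio per comparison and any past 2-fold. Ltc4s in tdTomato only, Itpr3 in double positive, Tas1r1, Tas1r3, Sucnr1, Il25 and Tslp were named after their values were seen. So were Mcpt1, Mcpt2, Cpa3, Ms4a2 and Sct. The members and lists were chosen with earlier results of these data known. The steps were tested on simulated arrays. Alternatives were median centring, quantile normalization, blank subtraction, an offset of 10, the deposited ratios, limits of 3 SD or none, the brightest probe and 1.5-fold. The authors' own background limit was added after seeing the data.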

Additional observations from a re-analysis of the deposited data

How the results depend on the processing

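Of 22 member log2 ratios, 18 kept their sign under every alternative. The exceptions were Avil, Gfi1b and Ptgs1 near 0 and Cd24a in tdTomato only over double positive. Each member had 1 probe, so other background limits, no filter and the brightest probe could not change the ratio of a member. Alternatives that could were median centring, quantile normalization, blank subtraction, an offset of 10 and the deposited ratios. In double positive over EGFP only the member median of −0.38 became −0.66 with median centring, −0.47 after quantile normalization, −0.65 with the blank mean subtracted, −0.53 with an offset of 10, −0.82 in the deposited ratios, −0.18 with no filter and −0.28 with the authors' background limit. There the members at least 2-fold lower numbered 2 with the blank mean subtracted, in the deposited ratios and at 1.5-fold, and those higher fell to 0 with median centring. In tdTomato only over EGFP only the member median was −0.15 with median centring, which left 0 members at least 2-fold higher, and −0.18 in the deposited ratios. In tdTomato only over double positive it was 0.51 with the blank mean subtracted, 0.35 with an offset of 10 and 0.56 in the deposited ratios, with 2 members at least 2-fold higher in the first and last of these and 1 at 1.5-fold.

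For the further tuft cell genes in double positive over EGFP only, the median was −0.11 with median centring and 0.10 in the deposited ratios. There 4 were higher at 1.5-fold and 3 in the deposited ratios, and 4 were lower with the blank mean subtracted and 1 with median centring, quantile normalization, an offset of 10, the deposited ratios or 1.5-fold. In tdTomato only over EGFP only the median was −0.15 with median centring, 0 were higher with median centring or quantile normalization and 4 in the deposited ratios or at 1.5-fold, and 2 were lower with the blank mean subtracted or in the deposited ratios. Between the tdTomato-positive populations 2 were lower with the blank mean subtracted, 3 in the deposited ratios and 1 with an offset of 10 or at 1.5-fold. Fewer or more genes pass under other limits, and an offset shrinks dim ratios by construction. For the other settings the cause was not tested. Signal near the blanks limits Pou2f3, Gfi1b, Ptgs1 and Dclk1. No replicate could be left out. No paired analysis was possible because each group held 1 sample and no test was made.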
